A study of Rattus norvegicus with 12 samples.

Results

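The proteasome is the large protease that degrades proteins tagged with ubiquitin. The genes described here are those whose name on the array begins with Psma, Psmb, Psmc, Psmd, Psme, Psmf or Psmg followed by a number, which took in 42 of the 35538 genes on the array, read by 50 of its 41012 probes. All 42 were measurable and entered the test. They were measured in the kidney cortex of male Fisher 344 rats aged 8 weeks, killed 24 h after a single intravenous injection. The control group received the saline vehicle alone (0 mg/kg), and the low, middle and high dose groups received 150, 300 and 600 mg/kg of cephaloridine (CER), a cephalosporin antibiotic that is toxic to the proximal tubule. Each group had 3 samples, 1 array each, so the 4 groups gave 12 arrays. The labels number the samples within a group without saying that each came from a separate rat, and p-values then measure only the spread between these samples.

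The 20S core of the proteasome is a barrel of stacked rings. The outer alpha rings gate the entrance, and the inner beta rings carry the protein-cutting sites on the subunits encoded by Psmb5, Psmb6 and Psmb7. A 19S cap recognises and unfolds the substrate: its base holds ATPase subunits, large scaffold subunits and a ubiquitin receptor, and its lid removes ubiquitin before the substrate enters. Immune cells, and other cells exposed to interferon, replace the cutting subunits by Psmb8, Psmb9 and Psmb10 (the immunoproteasome), and the Psme proteins are alternative caps. Dedicated chaperones, among them Psmd5, Psmd9 and Psmd10, assemble the parts without staying in the finished particle.

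The promoters of the constitutive cutting subunits and of their inducible counterparts are shown first, because the comparison of these pairs runs through the results. The sequences come from RefSeq on the GRCr8 rat assembly and run from 170 bases before to 30 bases after the annotated start, on the strand of the gene. Capitals mark matches, on either strand, to 4 motifs: the antioxidant response element core TGACNNNGC, the heat shock element GAANNTTC, the interferon-stimulated response element, searched as GAAA and again GAAA after any 2 bases, and the CCAAT box. Psmb5 lies at chr15:32047350-32047549 on the minus strand, Psmb6 at chr10:55737718-55737917 on the plus strand, and Psmb7 at chr3:42827441-42827640 on the minus strand. The windows of Psmb8 at chr20:4657002-4657201 on the minus strand and of Psmb9 at chr20:4668830-4669029 on the plus strand lie close together, and Psmb10 lies at chr19:50743263-50743462 on the minus strand.
Psmb5: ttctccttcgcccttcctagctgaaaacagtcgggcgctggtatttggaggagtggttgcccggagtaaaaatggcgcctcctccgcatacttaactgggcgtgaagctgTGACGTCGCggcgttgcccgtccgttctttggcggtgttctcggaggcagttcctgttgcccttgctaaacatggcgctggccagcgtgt
Psmb6: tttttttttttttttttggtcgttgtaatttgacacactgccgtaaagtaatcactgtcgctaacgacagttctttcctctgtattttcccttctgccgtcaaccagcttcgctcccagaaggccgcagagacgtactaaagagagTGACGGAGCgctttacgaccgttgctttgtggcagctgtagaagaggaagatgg
Psmb7: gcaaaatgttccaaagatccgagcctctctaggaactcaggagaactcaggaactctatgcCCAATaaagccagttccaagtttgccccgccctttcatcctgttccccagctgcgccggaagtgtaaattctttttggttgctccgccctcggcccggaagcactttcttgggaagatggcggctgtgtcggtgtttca
Psmb8: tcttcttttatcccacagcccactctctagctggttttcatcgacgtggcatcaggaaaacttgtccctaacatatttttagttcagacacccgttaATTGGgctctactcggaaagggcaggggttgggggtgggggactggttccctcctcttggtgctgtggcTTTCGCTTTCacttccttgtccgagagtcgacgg
Psmb9: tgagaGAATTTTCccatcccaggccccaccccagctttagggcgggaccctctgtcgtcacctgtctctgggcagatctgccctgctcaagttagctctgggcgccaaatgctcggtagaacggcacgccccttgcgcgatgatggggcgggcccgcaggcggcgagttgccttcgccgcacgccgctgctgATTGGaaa
Psmb10: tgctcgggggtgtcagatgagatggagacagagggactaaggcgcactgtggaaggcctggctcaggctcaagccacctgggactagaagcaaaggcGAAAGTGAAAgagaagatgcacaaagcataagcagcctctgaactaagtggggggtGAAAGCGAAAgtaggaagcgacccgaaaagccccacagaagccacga
In these windows Psmb5 and Psmb6 each held 1 match to the antioxidant response element core. Psmb10 held 2 matches to the interferon-stimulated response element, and Psmb8 held 1. A match describes letters and shows neither binding nor a cause.

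The median processed signal of an array ran from 59.0 to 68.6 units, and the share of probes well above background from 59.2% to 63.2%. Levels are given as log2 of the processed signal minus the 75th percentile of the same array, so a level of 0 is the signal at that percentile, and a change is a difference between such levels. A member was called when the adjusted p of limma, corrected by the Benjamini-Hochberg method over all 20761 tested genes, was under 0.05. The arrays sat on 4 slides, and no slide held both controls and 600 mg/kg samples: controls 1 to 3 shared a slide with low 1, low 2 with middle 1, low 3 with middle 2, and the 3 high dose samples with middle 3. Dose and slide are therefore partly confounded. In bulk cortex, fewer cells of a type and less RNA per cell cannot be told apart.

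At 600 mg/kg, proteasome genes were slightly higher across most of the particle. Of the 42 members, 20 rose and none fell, where 18.0% of all tested genes rose and 16.8% fell. The median change of the members was 0.15 on the log2 scale (1.11-fold), beside -0.002 over all tested genes, and 38 of the 42 changes were above 0, as were 49.6% of all changes. The rises were small, from 0.14 for Psmc3 (1.10-fold) to 0.38 for Psmc3ip (1.30-fold). In 31 members every 600 mg/kg sample lay above every control, against 28.5% of all tested genes, and in 2 every sample lay below, against 27.6%. Members also spread less: their median SD was 0.0395 in the controls, beside 0.0657 over all tested genes. At 600 mg/kg it was 0.0524 beside 0.0699. The part of this difference in the counts was not tested. Of the 22 members that were not called, 6 had an unadjusted p under 0.05 in limma, so that 26 of 42 did in all. Over all tested genes 9329 of 20761 did.

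Sample by sample, the median over members of the change from the control mean was -0.02, -0.01 and 0.04 in the 3 controls, 0.01, 0.01 and 0.02 at 150 mg/kg, 0.04, 0.14 and 0.07 at 300 mg/kg, and 0.19, 0.10 and 0.16 at 600 mg/kg. The 600 mg/kg samples did not overlap the controls, whereas middle 2 stood among the high dose samples and the other middle dose samples stood below them. Of the 20 calls, 12 held whichever array was left out. The count dropped to 13 without control 1 and to 13 without high 1, and the calls lost in some such fit were those of Psma5, Psma6, Psmc2, Psmc3, Psmc4, Psmd1, Psmd10 and Psme1. With slide as a block the median change was similar, 0.18, and 37 of 42 changes were above 0 (48.6% of all tested genes), 36 of them in both fits. Psmd1 and Psmd4 turned below 0 in the blocked fit and Psmd6 above it. In that fit limma called no member, while 1.83% of all tested genes were called higher and 0.983% lower. An unadjusted p under 0.05 was found there for 9 of 42 members and for 4590 of the 20761 tested genes, a similar share. The median standard error of a member rose from 0.05 to 0.12.

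**Figure D1:**
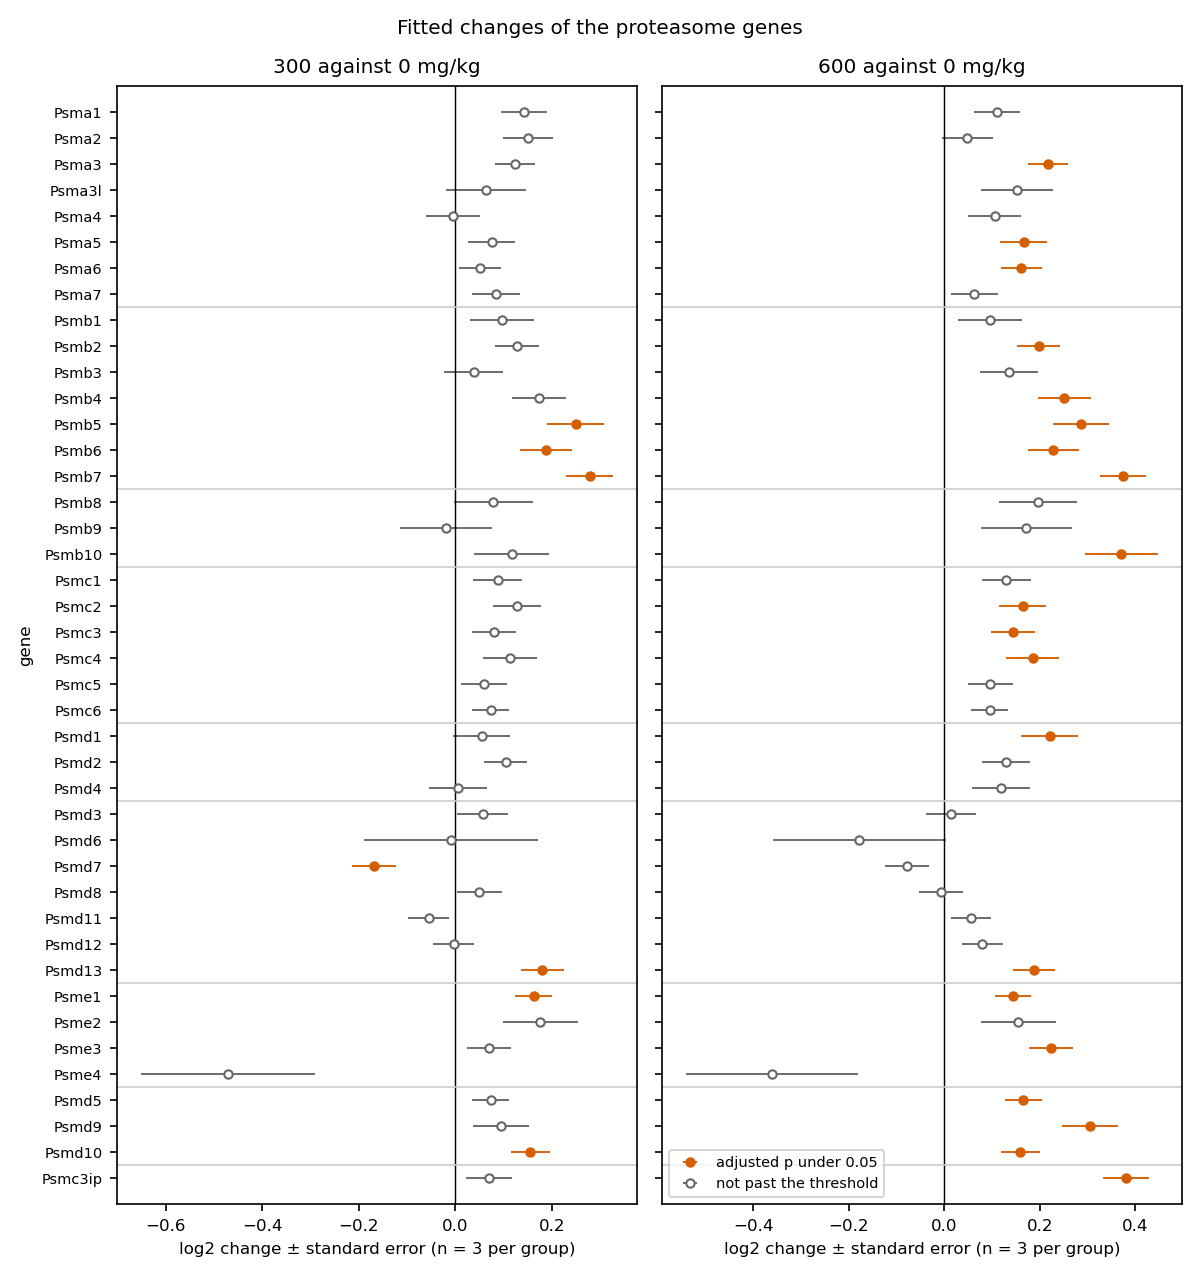
Fitted log2 change of each of the 42 proteasome genes against the controls at 300 mg/kg (left) and 600 mg/kg (right), with its standard error (n = 3 per group). Filled orange points passed an adjusted p under 0.05, and grey lines separate the parts of the particle. At 600 mg/kg 20 points are filled and all of these lie above 0. Psme4 lies farthest below 0, and Psme4 and Psmd6 have the longest bars.

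The alpha ring had 3 of its 8 members higher at 600 mg/kg, with a median change of 0.13. Psma3, an alpha-ring subunit, had levels of 4.18, 4.16 and 4.26 in the controls, 4.33, 4.37 and 4.28 at 300 mg/kg and 4.42, 4.39 and 4.44 at 600 mg/kg. All 600 mg/kg samples were above every other sample, and the rise was 0.22 ± 0.04 (SE, n = 3 per group; adjusted p = 0.00324). Psma5 rose by 0.17 ± 0.05 (adjusted p = 0.0245), a call that ended when control 1, control 2, high 1 or high 3 was left out. Psma6 rose by 0.16 ± 0.04 (adjusted p = 0.0159), and its other probe gave 0.15 and passed too; the call was lost without control 1, high 1 or high 3. Psma1, whose 600 mg/kg samples also lay above every control, differed by 0.11 ± 0.05 and did not pass (adjusted p = 0.102). Psma2, Psma4, Psma7 and Psma3l did not pass, with changes from 0.05 to 0.15. Psma3l is read by a probe of its own, and RefSeq lists its name as a synonym of Psma3.

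In the beta ring 5 of 7 members rose, and its median change, 0.23, was the highest of the parts with more than 1 member; with slide as a block its median was 0.26 and that of the immunoproteasome subunits 0.31. Psmb7, which carries the trypsin-like site, had levels of 2.87, 2.87 and 2.97 in the controls, 2.97, 3.03 and 3.02 at 150 mg/kg, 3.12, 3.23 and 3.18 at 300 mg/kg and 3.33, 3.21 and 3.28 at 600 mg/kg. The 300 and 600 mg/kg samples all lay above the controls and the 150 mg/kg samples. The rise was 0.28 ± 0.05 at 300 mg/kg (adjusted p = 0.00929) and 0.37 ± 0.05 at 600 mg/kg, or 1.30-fold (adjusted p = 0.000428), and both calls held whichever array was left out. It was above 0 in all 4 comparisons between arrays of the same slide.

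Psmb5, which carries the chymotrypsin-like site, had levels of 4.73, 4.73 and 4.77 in the controls, 4.73, 4.76 and 4.87 at 150 mg/kg, 4.88, 5.04 and 5.06 at 300 mg/kg and 5.09, 4.99 and 5.01 at 600 mg/kg. The 300 and 600 mg/kg samples overlapped each other and not the controls. It rose by 0.25 ± 0.06 at 300 mg/kg (adjusted p = 0.0237) and by 0.29 ± 0.06 at 600 mg/kg (adjusted p = 0.0042), while the slide-blocked value at 600 mg/kg was 0.09. The call at 300 mg/kg was lost without control 1, control 2, middle 2 or middle 3.

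Psmb6, which carries the caspase-like site, had levels of 3.13, 3.19 and 3.21 in the controls, 3.33, 3.47 and 3.30 at 300 mg/kg and 3.43, 3.35 and 3.43 at 600 mg/kg, so the samples of both doses lay above the controls. It rose by 0.19 ± 0.05 at 300 mg/kg (adjusted p = 0.0451) and by 0.23 ± 0.05 at 600 mg/kg (adjusted p = 0.00866). The call at 300 mg/kg was at the edge of the threshold and was lost without any one of 11 of the 12 arrays, the exception being middle 3. Of the structural beta subunits, Psmb4 rose by 0.25 ± 0.06 (adjusted p = 0.00652) and Psmb2 by 0.20 ± 0.05 (adjusted p = 0.00811) at 600 mg/kg. Psmb1 and Psmb3 differed by 0.10 and 0.14 and did not pass. RefSeq lists 45 pseudogenes for 17 of the members, 8 of them for Psmb3, and near-identical transcripts may share a probe's signal.

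Of the immunoproteasome subunits Psmb10 rose at 600 mg/kg, while Psmb8 and Psmb9 did not pass. Psmb10, the inducible counterpart of Psmb7, had levels of 2.53, 2.58 and 2.57 in the controls, 2.59, 2.63 and 2.53 at 150 mg/kg, 2.61, 2.84 and 2.59 at 300 mg/kg and 2.97, 2.79 and 3.03 at 600 mg/kg. High 1 and high 3 lay above all other samples, and middle 2 lay above high 2. The rise was 0.37 ± 0.08 against control (1.29-fold; adjusted p = 0.00473) and 0.25 ± 0.08 against 300 mg/kg (adjusted p = 0.0395). Psmb8, the counterpart of Psmb5, had levels of 1.06, 1.01 and 1.01 in the controls and 1.25, 1.13 and 1.30 at 600 mg/kg, which do not overlap, but its difference of 0.20 ± 0.08 did not pass (adjusted p = 0.0893). Psmb9, the counterpart of Psmb6, had levels of 2.41, 2.53 and 2.40 in the controls and 2.69, 2.47 and 2.69 at 600 mg/kg; these overlap, and the difference of 0.17 ± 0.10 did not pass (adjusted p = 0.187). At 150 mg/kg each inducible subunit spread more than its constitutive counterpart, with low 3 the lowest of that group for each of them.

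Set pair by pair without regard to slide, the inducible subunit was on average not ahead of its constitutive counterpart at any treated dose. The change of the inducible minus that of the constitutive subunit averaged -0.21 ± 0.07 (SD, n = 3) at 300 mg/kg and -0.06 ± 0.08 at 600 mg/kg at the beta 1 position, taken by Psmb6 or Psmb9. At the beta 2 position, taken by Psmb7 or Psmb10, it averaged -0.16 ± 0.10 at 300 mg/kg, and at 600 mg/kg it was -0.02, -0.08 and 0.09 in the 3 samples. At the beta 5 position, taken by Psmb5 or Psmb8, it averaged -0.17 ± 0.11 at 300 mg/kg and -0.09 ± 0.09 at 600 mg/kg. At 300 mg/kg all 9 values were below 0, and at 600 mg/kg the samples lay on both sides of 0 at the beta 2 and beta 5 positions. In the slide-blocked fit the order at 600 mg/kg turned for 2 of the 3 pairs: the change was 0.51 ± 0.19 for Psmb10 against 0.32 ± 0.12 for Psmb7, and 0.31 ± 0.21 for Psmb8 against 0.09 ± 0.10 for Psmb5, while Psmb9 had 0.26 ± 0.26 against 0.36 ± 0.11 for Psmb6. Within the slide that held both, middle 2 exceeded low 3 by 0.31 to 0.33 for the inducible subunits and by 0.17 to 0.24 for the constitutive ones. The slide of middle 1 and low 2 had the opposite order. There middle 1 minus low 2 was -0.22 to -0.02 for the inducible subunits and 0.10 to 0.17 for the constitutive ones. These differences between probes are a description with no test.

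**Figure D2:**
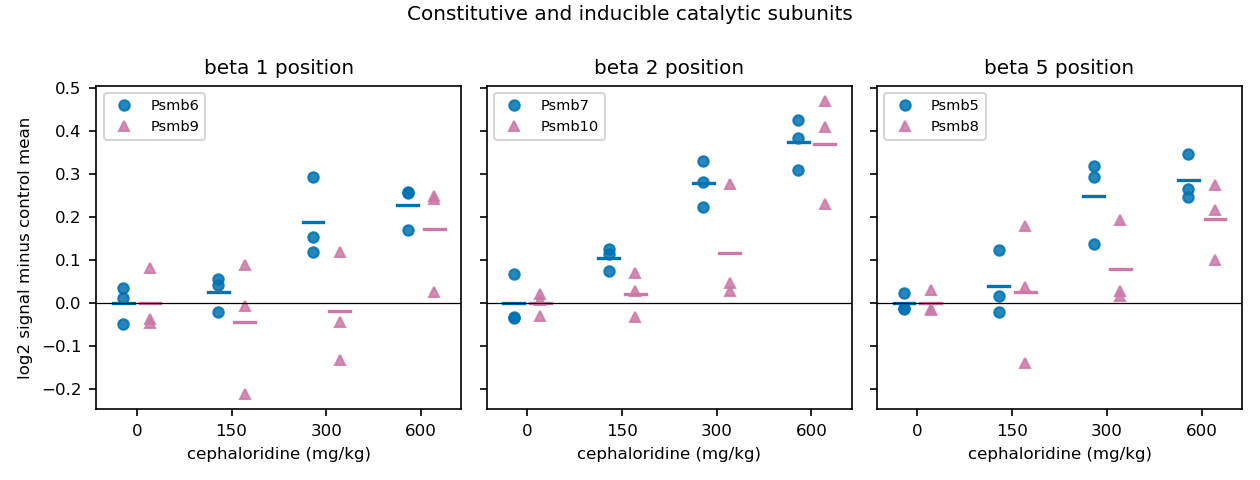
Change from the control mean, in log2 signal, of each constitutive cutting subunit (blue circles) and its inducible counterpart (pink triangles) against the dose of cephaloridine in mg/kg, 1 point per array with a bar at the mean of 3. At 300 mg/kg the mean of the circles lies above that of the triangles at each position, and at 600 mg/kg Psmb7 and Psmb10 have means of equal height.

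Among the ATPases of the base, which unfold substrates and feed them into the core, 3 of 6 rose at 600 mg/kg, and the median change was 0.14. Psmc4 had levels of 2.69, 2.73 and 2.75 in the controls, 2.75, 2.96 and 2.80 at 300 mg/kg and 2.95, 2.88 and 2.89 at 600 mg/kg, with middle 2 the highest sample of all. Its rise was 0.18 ± 0.06 (adjusted p = 0.0263), and its other probe, with 0.14, passed too. Psmc2 rose by 0.16 ± 0.05 (adjusted p = 0.0266) and Psmc3 by 0.14 ± 0.05 (adjusted p = 0.034). Leaving out control 1, control 2, high 1 or high 3 ended each of these 3 calls, as did control 3 for Psmc2 and low 3 for Psmc3, and the slide-blocked value of Psmc3 was 0.02. Psmc1, Psmc5 and Psmc6 differed by 0.13, 0.10 and 0.10 and did not pass, and the other probe of Psmc6 gave -0.07.

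Of the base scaffold and ubiquitin receptor genes, Psmd1 rose, by 0.22 ± 0.06 at 600 mg/kg (adjusted p = 0.0171). Its levels were 5.62, 5.69 and 5.77 in the controls, 5.73, 5.70 and 5.82 at 300 mg/kg and 5.96, 5.86 and 5.92 at 600 mg/kg, so the high dose samples lay above all controls. The other probe of Psmd1 gave 0.01, the slide-blocked value was -0.04, and leaving out any of control 1, control 2, high 1 or high 3 ended the call. Psmd2, the other large scaffold subunit, differed by 0.13 ± 0.05 on its brightest probe (adjusted p = 0.074), with high 1 left out for a marked spot, and by 0.17 on its other probe, which passed (adjusted p = 0.0101). Psmd4, the ubiquitin receptor, had levels of 4.30, 4.30 and 4.29 in the controls and 4.50, 4.38 and 4.37 at 600 mg/kg. These groups do not overlap, but the difference of 0.12 ± 0.06 did not pass (adjusted p = 0.154), and the slide-blocked value was -0.01.

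The lid stood at a median change of 0.01 at 600 mg/kg, the lowest of the parts, and 1 of its 7 measured members rose. Its slide-blocked median was 0.06, and the base scaffold and ubiquitin receptor genes were lowest at -0.01. Psmd13 had levels of 1.59, 1.48 and 1.57 in the controls, 1.63, 1.67 and 1.62 at 150 mg/kg, 1.76, 1.70 and 1.71 at 300 mg/kg and 1.78, 1.71 and 1.70 at 600 mg/kg. All treated samples lay above the controls. The rise was 0.18 ± 0.04 at 300 mg/kg (adjusted p = 0.0275), lost without control 1, control 2 or middle 1, and 0.19 ± 0.04 at 600 mg/kg (adjusted p = 0.00868). Psmd6 had levels of 0.16, 0.20 and 0.31 in the controls and -0.14, 0.05 and 0.22 at 600 mg/kg. It scattered widely in every treated group, and its difference of -0.18 ± 0.18 did not pass (adjusted p = 0.477). The slide-blocked value was 0.70 ± 0.22 and did not pass either (adjusted p = 0.134).

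Psmd7 fell at 300 mg/kg, from levels of 3.38, 3.40 and 3.38 in the controls to 3.17, 3.26 and 3.22, and stood at 3.37, 3.27 and 3.29 at 600 mg/kg. The fall of -0.17 ± 0.05 passed the threshold narrowly (adjusted p = 0.0373), its other probes gave -0.08 and -0.09, and the call was lost without any one of control 1, control 2, control 3, low 2, middle 1, middle 3 or high 3. At 600 mg/kg the difference was -0.08 and did not pass (adjusted p = 0.21). Psmd3, Psmd8, Psmd11 and Psmd12 differed from the controls by -0.01 to 0.08 at 600 mg/kg, and none of them passed. Psmd14, the lid enzyme that removes ubiquitin, was not analysed here.

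The alternative caps moved unequally: 2 of 4 rose at 600 mg/kg and their median was 0.15. Psme3, which encodes the nuclear cap PA28 gamma, had levels of 2.62, 2.63 and 2.70 in the controls, 2.73, 2.73 and 2.71 at 300 mg/kg and 2.88, 2.79 and 2.95 at 600 mg/kg. The high dose samples lay above all others, with a rise of 0.22 ± 0.05 against control (adjusted p = 0.00454) and of 0.15 ± 0.05 against 300 mg/kg (adjusted p = 0.0377). Psme1, a subunit of the interferon-inducible cap PA28, had levels of 4.35, 4.32 and 4.33 in the controls, 4.45, 4.53 and 4.51 at 300 mg/kg and 4.50, 4.45 and 4.49 at 600 mg/kg. It rose by 0.16 ± 0.04 at 300 mg/kg (adjusted p = 0.0231), lost without any 1 control or middle 3, and by 0.14 ± 0.04 at 600 mg/kg (adjusted p = 0.0139), lost without high 1. Psme2, its partner in the cap, differed by 0.16 ± 0.08 at 600 mg/kg and did not pass (adjusted p = 0.152).

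Psme4, which encodes the cap PA200, was the member with the largest difference below 0. Its levels were 3.12, 3.00 and 3.03 in the controls, 3.04, 2.94 and 2.96 at 150 mg/kg, 2.95, 2.04 and 2.76 at 300 mg/kg and 2.76, 2.68 and 2.64 at 600 mg/kg. All 300 and 600 mg/kg samples lay below the controls, and middle 2 lay far below the rest. The differences of -0.47 ± 0.18 at 300 mg/kg (adjusted p = 0.109) and -0.36 ± 0.18 at 600 mg/kg (adjusted p = 0.148) did not pass. Without middle 2 the adjusted p at 600 mg/kg was 0.00202, and without middle 1 that at 300 mg/kg was 0.0337. Its other probe gave -0.25 at 600 mg/kg and did not pass. The inhibitor gene Psmf1 was not analysed here.

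All 3 assembly chaperones found by name rose at 600 mg/kg. Psmd9, which helps assemble the base, had levels of 3.28, 3.33 and 3.38 in the controls, 3.36, 3.44 and 3.48 at 300 mg/kg and 3.74, 3.54 and 3.62 at 600 mg/kg. The high dose samples lay above all others, and the rise was 0.30 ± 0.06 against control (1.23-fold; adjusted p = 0.00312) and 0.21 ± 0.06 against 300 mg/kg (adjusted p = 0.0275). Psmd5, another base chaperone, rose by 0.17 ± 0.04 (adjusted p = 0.00777). Psmd10, known as gankyrin, had levels of 1.73, 1.73 and 1.81 in the controls, 1.88, 1.89 and 1.96 at 300 mg/kg and 1.89, 1.93 and 1.92 at 600 mg/kg. It rose by 0.16 ± 0.04 at both doses (adjusted p = 0.0338 at 300 mg/kg, lost without control 1, control 2, low 3, middle 3 or high 3, and 0.0132 at 600 mg/kg, lost without control 1 or control 2).

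The core chaperone genes are on the array under older names and are not among the 42. Psmg1 differed by 0.14 ± 0.04 at 600 mg/kg (adjusted p = 0.0325) and Psmg2 by 0.14 ± 0.05 (adjusted p = 0.0436), and both passed, while Psmg3 differed by 0.11 ± 0.05 and did not (adjusted p = 0.105). The call of Psmg1 was lost without any 1 control, high 1 or high 3, and that of Psmg2 without any one of 10 arrays. Psmg4 was not analysed here, and Psma8 and Psmb11, also under older names, were too dim to be tested.

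Psmc3ip meets the naming rule but encodes a partner of meiotic recombination enzymes, not a proteasome subunit. Its levels were 0.22, 0.29 and 0.32 in the controls, 0.28, 0.42 and 0.34 at 300 mg/kg and 0.68, 0.61 and 0.68 at 600 mg/kg, with the high dose samples well clear of all others. It had the largest rise of the 42, 0.38 ± 0.05 (adjusted p = 0.000354), and without it 19 of 41 genes rose at 600 mg/kg.

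**Figure D3:**
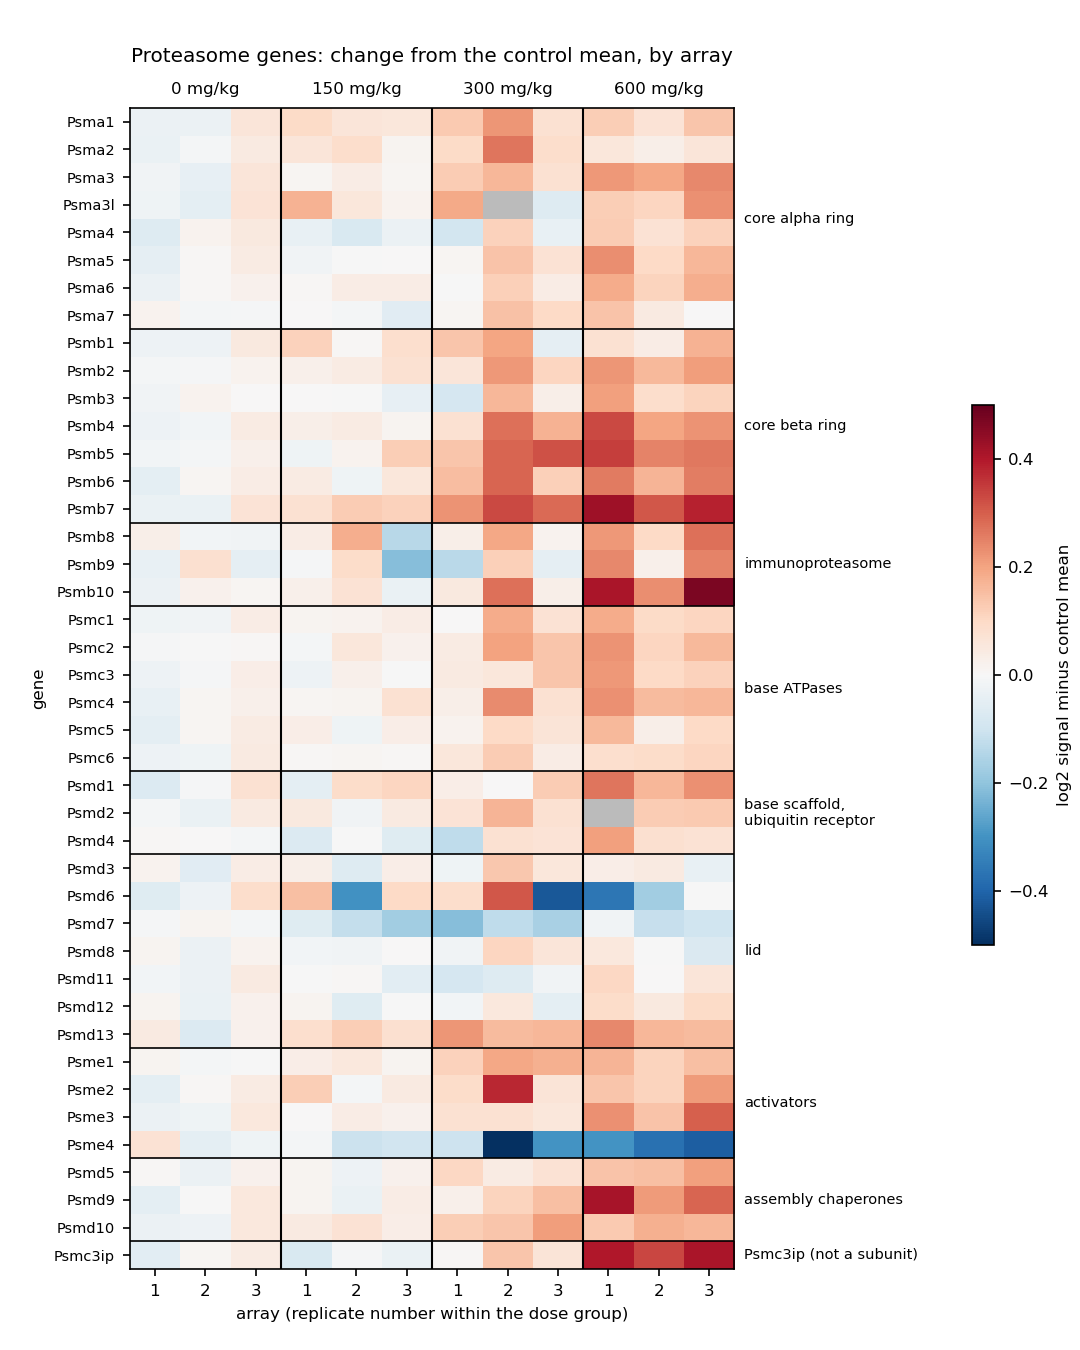
Heat map of the log2 signal of each of the 42 proteasome genes (rows, grouped by part of the particle) minus its control mean, in each of the 12 arrays (columns, by dose in mg/kg and replicate number). The colour scale ends at 0.5 in both directions, which Psme4 in middle 2 exceeds, and grey marks the 2 spots left out. The beta ring and the assembly chaperones are above their control means in the 600 mg/kg arrays, and the lid is mixed.

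Fewer members were called at the lower doses. At 150 mg/kg limma called no member, where 0.0578% of all tested genes rose and 0.0434% fell. An unadjusted p under 0.05 was found for 1 of 42 members and for 2092 of the 20761 tested genes. The median change was 0.02, beside 0.01 over all tested genes, and the changes ran from -0.12 for Psmd7 to 0.11 for Psmb7. At 300 mg/kg 6 members rose, namely Psmb5, Psmb6, Psmb7, Psmd10, Psmd13 and Psme1, and Psmd7 fell, where 8.21% of all tested genes rose and 4.81% fell. The members that rose were 14.3% of the 42, and the median change was 0.08, beside 0.02 over all tested genes. The 6 calls dropped to 1 without control 1, to 1 without control 2 and to 3 without middle 3. With slide as a block limma called none higher (0.12% of all tested genes), where 37 of 42 changes were above 0 (53.8% of all tested genes), 33 of them in both fits. An unadjusted p under 0.05 was found in that fit for 7 of 42 members, a share no higher than over all tested genes (3773 of 20761).

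Between neighbouring doses, no member passed in limma from 150 to 300 mg/kg, where 0.193% of all tested genes rose and 0.0385% fell. For this step 8 of 42 members had an unadjusted p under 0.05, as did 3321 of the 20761 tested genes. From 300 to 600 mg/kg Psmb10, Psmd9, Psme3 and Psmc3ip rose. They were 9.52% of the members, near the 9.61% of all tested genes that rose. No member fell, where 12.9% of all tested genes did. The median change over this step was 0.07 for the members and -0.02 for all tested genes, and that of the members was 0.0363 without middle 1. The call of Psmc3ip held without any 1 array (0.31 ± 0.05, adjusted p = 0.00162), and it was the single member called in the slide-blocked fit, where 4.96% of all tested genes were called higher. That of Psmd9 was lost without middle 1, high 1 or high 3. Those of Psmb10 and Psme3 were each lost without any one of 10 of the 12 arrays, with middle 2 and high 2 the exceptions for Psmb10 and control 3 and high 2 for Psme3.

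Comparisons within a slide do not mix slide with dose, but each holds few arrays and carries no test. On the slide of the controls, low 1 lay above the control mean in 29 of 42 members (53.7% of all tested genes). Middle 1 lay above low 2 in 30 of 42 (50.6%), with a median difference of 0.03. Middle 2 lay above low 3 in 38 of the 41 members measured in both (56.4%), with a median difference of 0.14 beside 0.03 over all tested genes. The mean of the high dose samples lay above middle 3 in 34 of 42 (44.2%), with a median difference of 0.09 beside -0.03 over all tested genes. The members thus stood clearest of all tested genes in middle 2 against low 3 and in the high dose samples against middle 3, and least in low 1 against the controls, where the medians were both 0.01.

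**Figure D4:**
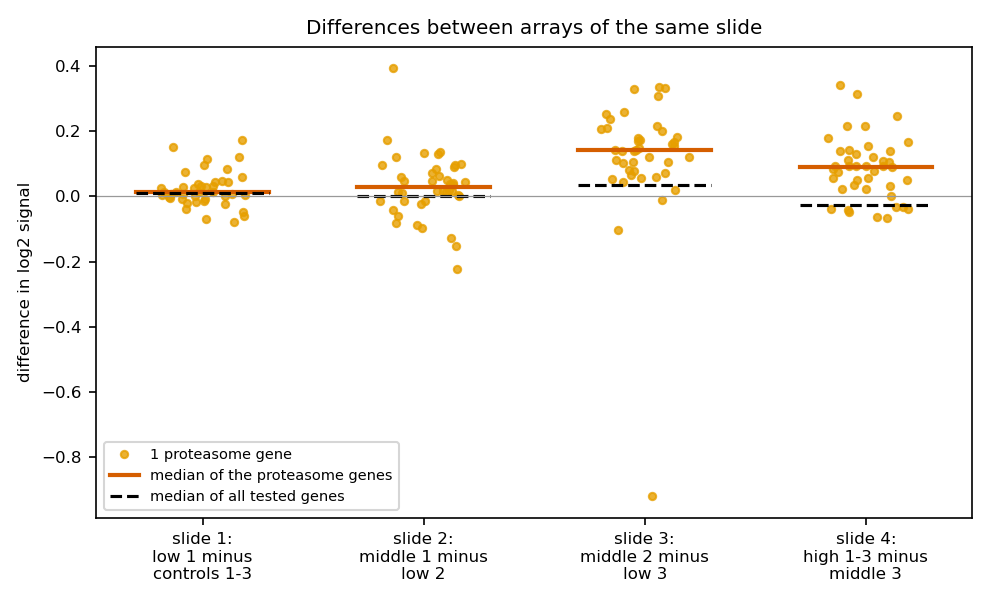
Difference in log2 signal between arrays on the same slide, 1 orange point for each proteasome gene, with the median of these genes (solid bar) and of all tested genes (dashed bar). Low 1 is set against the controls, middle 1 against low 2, middle 2 against low 3 and the mean of the 3 high dose arrays against middle 3. The solid bar is farthest above the dashed bar for middle 2 (0.14) and for the high dose arrays (0.09).

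RefSeq promoters of 300 bases, from 250 before to 50 after the start, were found for 37 of the 41 members other than Psmc3ip. The antioxidant response element core TGACNNNGC was present in 8 of the 37 (21.6%, beside 12.2% of 27457 promoters of the same length), in Psma3, Psmb2, Psmb5, Psmb6, Psmd1, Psmd3, Psmd9 and Psme4. Of these 8, 6 rose at 600 mg/kg, with a median change of 0.22, and of the other 29, 13 rose, with a median of 0.15. The 2 that did not rise were Psmd3 and Psme4. The interferon-stimulated response element was present in 6 of 37 (16.2%, beside 3.77%), and of these Psmb10 alone rose, while Psma4, Psmb3, Psmb8, Psmd7 and Psme2 were not called higher. The heat shock element GAANNTTC was present in 3 of 37 (8.11%, beside 8.34%), of which 2 rose. The CCAAT box was present in 19 of 37 (51.4%, beside 37.7%), of which 9 rose, as did 10 of the 18 without it. These counts carry no test, and a motif may overlap another.

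The genes that work with the proteasome were followed through a list of 45 genes, of which 40 were tested; the list was drawn up with earlier results of these data known. At 600 mg/kg 13 rose and 2 fell, where 18.0% of all tested genes rose and 16.8% fell, and the median change was 0.09. With slide as a block 1, Ubqln4, was called higher and none lower. In that fit 6 of the 40 had an unadjusted p under 0.05 in limma, a share no higher than over all tested genes (4590 of 20761). Zfand2a, also called AIRAP, an arsenite-inducible protein associated with the proteasome, had levels of -2.43, -2.23 and -2.49 in the controls, -2.73, -2.82 and -2.81 at 300 mg/kg and -1.57, -1.64 and -1.74 at 600 mg/kg. The high dose samples lay above all others and the 300 mg/kg samples below all others. It rose by 0.73 ± 0.12 at 600 mg/kg (1.66-fold; adjusted p = 0.0015), and the difference at 300 mg/kg, -0.40, did not pass. Adrm1, the ubiquitin receptor of the base that lacks a Psm symbol, had levels of -2.50, -2.21 and -2.37 in the controls and -1.63, -1.91 and -1.77 at 600 mg/kg, and rose by 0.59 ± 0.13 (adjusted p = 0.00567). Thop1, a peptidase that degrades proteasome products, rose by 0.49 ± 0.06, and Sqstm1, the autophagy receptor p62, by 0.41 ± 0.05, with levels of 4.18, 4.15 and 4.18 in the controls and 4.62, 4.50 and 4.63 at 600 mg/kg.

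Ubqln2, a shuttle that brings ubiquitin-tagged proteins to the proteasome, fell by 0.39 ± 0.12 (adjusted p = 0.0347). Control 1 stood at -2.71 against -3.25 and -3.26 in the other controls, the 600 mg/kg samples were at -3.37, -3.50 and -3.50, and the mean over the gene's probes gave 0.08. Ngly1, the glycanase that processes the transcription factor Nfe2l1, fell by 0.13 ± 0.04 (adjusted p = 0.0168), which ended when control 1, control 3, high 1 or high 3 was left out. Nfe2l1 itself, which controls proteasome genes when proteasome activity is low, had levels of 1.90, 1.90 and 1.85 in the controls and 1.82, 1.86 and 1.82 at 600 mg/kg, a difference of -0.05 ± 0.04 that did not pass (adjusted p = 0.391). Pomp, which matures the core, differed by 0.12 ± 0.06 and did not pass (adjusted p = 0.128).

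**Figure D5:**
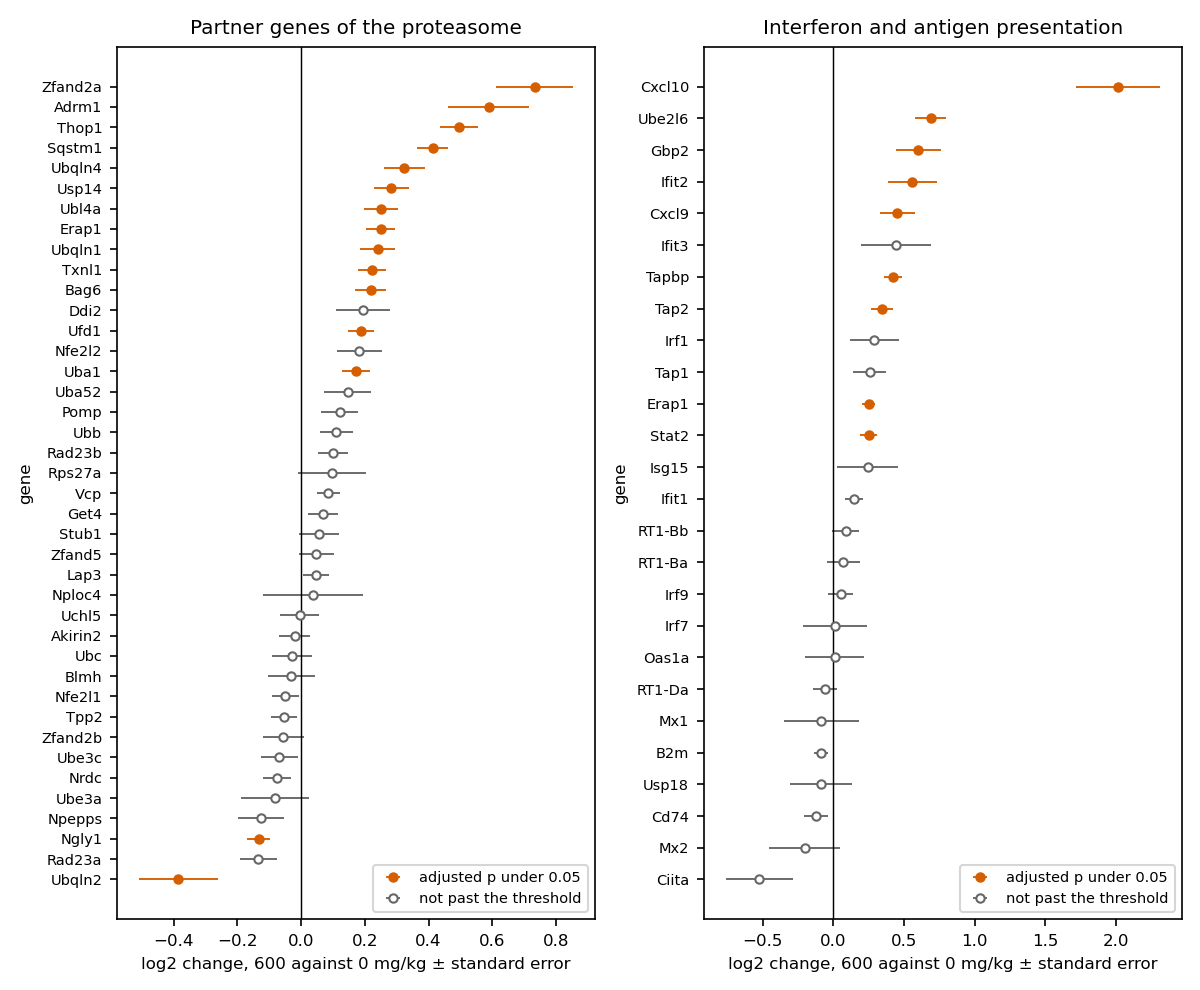
Fitted log2 change at 600 mg/kg against control, with its standard error (n = 3 per group), for the 40 tested partner genes of the proteasome (left) and 26 of the 27 tested interferon and antigen presentation genes (right), sorted by size. Filled orange points passed an adjusted p under 0.05, 13 higher and 2 lower on the left and 9 higher on the right. Zfand2a on the left and Cxcl10 on the right lie farthest above 0.

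Because the immunoproteasome is induced by interferon, a list of 30 interferon and antigen presentation genes was read beside it, drawn up in the same way. Of the 27 tested, 9 rose at 600 mg/kg and none fell, where 18.0% of all tested genes rose and 16.8% fell. Their median change was 0.15. By limma 11 of the 27 had an unadjusted p under 0.05, a share no higher than over all tested genes (9329 of 20761). In the slide-blocked fit limma called none of the 27, Cxcl10 included. There 5 had an unadjusted p under 0.05, again a share no higher than over all tested genes (4590 of 20761). Cxcl10, an interferon-induced chemokine, had levels of 0.01, 1.09 and -0.04 in the controls and 2.37, 2.24 and 2.50 at 600 mg/kg, with control 2 apart from the other controls, and rose by 2.02 ± 0.30 (4.05-fold; adjusted p = 0.000825). Ube2l6, which conjugates the ubiquitin-like protein ISG15, rose by 0.69 ± 0.11 (adjusted p = 0.00138), Gbp2, an interferon-induced GTPase, by 0.60 ± 0.16 (adjusted p = 0.0152), and Ifit2, an interferon-induced antiviral protein, by 0.56 ± 0.17 (adjusted p = 0.0307). The call of Gbp2 was lost without control 3 or high 3 and that of Ifit2 without any 1 control, high 1 or high 3.

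Markers of cell types moved at 600 mg/kg alongside the proteasome genes. All 7 proximal tubule markers fell, and their summed linear level, relative to each array's 75th percentile, was 360 to 379 in the 600 mg/kg samples against 515 to 539 in the controls. Of 15 leukocyte markers 11 were tested, of which 6 rose, where 18.0% of all tested genes rose, and 1, Cd8a, fell. Their summed level was 23.1 to 26.1 against 20.7 to 21.1. Laptm5 and Coro1a, with mean log2 levels of 3.23 and 2.82 in the controls, were the brightest of the 11 and weigh most in this sum. Ptprc, the defining leukocyte marker, differed by -0.06 (adjusted p = 0.697), while Itgb2, an integrin of leukocytes, rose by 0.47. Of 4 endothelial markers 3 fell. None of the 2 podocyte markers tested passed, and 1 of 3 loop and distal tubule markers and 1 of 3 collecting duct markers rose. With slide as a block 2 of the 7 proximal tubule markers (Slc34a1 and Aqp1) were called lower and 1 had a change above 0. Itgb2 alone of the leukocyte markers was called in that fit, and no endothelial marker was. Of these 4 endothelial markers 2 had an unadjusted p under 0.05 in limma, as did 4590 of all 20761 tested genes. Over all tested genes 16.8% were called lower without and 0.983% with slide as a block. The part of these shifts in the proteasome result, immunoproteasome subunits included, was not tested.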

How the data were processed

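Total RNA of the cortex was labelled with cyanine 3 and hybridised to 1-colour Agilent rat arrays, per the labels' protocols. The deposited scanner files hold intensity values, and per the file headers they came from Feature Extraction 9.1.3.1, whose processed signal (gProcessedSignal) is background-corrected. The authors' deposited value table holds a ratio on a linear scale: for 40749 probes it equals the processed signal, with a floor of 5, divided by a constant for each array, within 0.1%. That constant is near the array's median, column medians lie between 1.003 and 1.005, and the genes are not centred. It served as an alternative.

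Spots marked as outliers were left out, the log2 signals of a probe's spots were averaged, and these values were shifted by each array's 75th percentile. The brightest probe by the mean over 12 arrays stood for a gene, and the 20761 genes tested had a probe well above background throughout 1 or more of the groups; no spot of a member was saturated. The group means were fitted together in limma 3.58.1 (R 4.3.3), with Benjamini-Hochberg adjustment within each comparison and a threshold of 0.05. The fit was also run on simulated data without a slide effect, with planted changes larger than those of the members in the fit without a block. That run cannot show how well changes of the members' size are called. Genes were named through accession, symbol and synonym in a RefSeq table (GRCr8), and members kept their array name. Of the 20761 tested genes, 11043 matched that table, and the rest were counted under their array name. The number of arrays limits the precision.

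The members, the sub-complexes and the lists of partner, interferon and marker genes were chosen with earlier results of these data known. Named were the catalytic, activator and a few other members in any case, every member called, the largest rise and fall in each part of the particle, and up to 4 rises and 4 falls called at 600 mg/kg in the partner and interferon lists, with Nfe2l1, Pomp and Adrm1 in any case. Some items the rule covers are not reported here. Replicate numbers did not pair the samples: the deviations of same-numbered arrays from their group means correlated between -0.225 and 0.116. Comparisons with the controls share the same 3 control samples. Alternatives covered scaling, background correction, the value table, filters, probe choice, the groups in the fit, replicate, slide and scan day as blocks, and leaving out each array.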

Additional observations from a re-analysis of the deposited data

How the results depend on the processing

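At 600 mg/kg the count of members called higher, 20, fell to 0 with slide as a block and ran from 13 to 25 when 1 array was left out; no other alternative moved it by over 1.5 times. The count called lower there, 0, became 1 when the fit held only the compared groups or without middle 2. At 300 mg/kg the count called higher, 6, became 1 with no filter on dim probes, 10 with normexp background, 2 with quantile normalization, and 0 with only the compared groups or slide as a block; it ran from 1 to 7 when 1 array was left out. The single fall there, of Psmd7, was lost (0) with the authors' value table, the mean of probes, the median shift, no filter, only the compared groups, and replicate, scan day or slide as a block, and the count ran from 0 to 1 when 1 array was left out. From 300 to 600 mg/kg the count called higher, 4, became 1 with the value table, the median shift, no filter, only the compared groups, scan day or slide as a block, 15 with quantile normalization and 2 with the replicate block; it ran from 1 to 6 when 1 array was left out. The replicate block, where numbers pair no samples, changed no other count by over 1.5 times. The median change at 300 mg/kg, 0.08, was 0.0261 with quantile normalization. From 300 to 600 mg/kg the median, 0.07, was 0.1107 with quantile normalization and ran from 0.0363 (without middle 1) to 0.0925 when 1 array was left out. The median at 150 mg/kg, 0.02, was -0.0028 with quantile normalization and ran from 0.0079 to 0.0326 when 1 array was left out. Among the members, partner genes and interferon genes called at 600 mg/kg, direction turned for Psmd1 (-0.0381) and Cxcl9 (-0.135) with slide as a block and for Ubqln2 (0.0773) with the mean of probes. Of the 7 proximal tubule markers, all called lower at 600 mg/kg, 1 had a change above 0 with slide as a block. Of the members not called at 600 mg/kg, Psmd4 (-0.01) and Psmd6 (0.70) turned with slide as a block. The cause of these shifts was not tested. At 600 mg/kg the median standard error of a member was 0.05 without and 0.12 with slide as a block. All 42 members were well above background wherever measured, and the part of signal strength in their spread was not tested.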
